A study of Mus musculus with 18 samples.

Results

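The solute carriers, a large group of membrane transporters, were followed in single myeloid cells sorted from mouse yolk sac and brain. A gene row was taken when 1 of its names began with Slc and a digit and it held at least 30 unique molecular identifiers (UMIs, tags that each mark 1 captured transcript) over all kept cells. Of 27297 gene rows, 348 carried such a name, and 134 of these were followed. The other rows comprised 211 with fewer than 30 UMIs, 117 of them with none, and Slc1a3, Slc11a1 and Slc40a1, which the same rule left out. Slc38a6 was just inside the minimum with 30 UMIs and Slc35a1 with 31, while Slc2a9 was just outside with 26 and Slc39a4 with 25. The rows were thus chosen by their summed UMIs in these cells, so abundance over all cells is given as a description only. Of the 134 rows, 112 carried a single name, and 6 joined several genes, such as Slc12a9 with Slc12a8 and Slc39a7 with H2-Ke6, so their counts cannot be given to 1 gene. Rows with an older alias are called here by the Slc name, as Slc29a3 for the row that also carries Ent3.

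All cells came from untreated C57BL/6J mice with a green fluorescent protein reporter in Cx3cr1, the fractalkine receptor gene of microglia and other myeloid cells. The groups were yolk sac cells of embryonic day 12.5 (E12.5), with 4 libraries and 671 cells, and brain cells of the same day, with 4 libraries and 718 cells, both gated as CD45+CD11B+CX3CR1-GFP+. Brain cells of embryonic day 18.5 (E18.5), with 6 libraries and 992 cells, and of adult mice, with 4 libraries and 631 cells, were gated as CD45intCD11BintCX3CR1-GFP+, so gate and age changed together after E12.5. Libraries were made by MARS-seq, which sorts 1 cell into each well and counts UMIs at the 3′ end of polyadenylated transcripts. The labels tie no library to an animal, and the well annotation gives 1 subject number to all libraries of an age. A p-value here therefore reflects the spread among libraries alone, which may be technical.

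Solute carriers move nutrients, ions, metals and cofactors across the plasma membrane and the membranes of organelles, and fall into numbered families by the likeness of their proteins. The Slc25 family sits mostly in the inner mitochondrial membrane, Slc2 and Slc16 proteins carry hexoses and lactate, and Slc3 and Slc7 proteins pair a glycoprotein heavy chain with a transporting light chain for amino acids. Microglia, the resident macrophages of the brain, arise from yolk sac progenitors, digest what they engulf in lysosomes, and are known for Slc2a5, the fructose carrier GLUT5, as a marker among brain cells.

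Library totals ran from 74562 to 534219 UMIs, and the median cell held 1511 UMIs in yolk sac, 1725 and 983 in brain at E12.5 and E18.5, and 521 in adult brain. Of these 12, 16, 11 and 6 belonged to solute carriers, as medians in that order, and the 36 empty wells held 10 among 1008 UMIs in all. Both E18.5 and adult brain were sequenced in a single shared batch, whereas no batch held brain cells of E12.5 together with those of a later age, and a fit with batch as a term links them only through yolk sac libraries. The summed level of 7 microglial markers was 159 to 314 CPM (UMIs per 1000000 UMIs of the library) in yolk sac. It was 3381 to 4172 CPM in brain at E12.5, 9431 to 10179 at E18.5 and 22162 to 23638 in the adult. The 6 markers of yolk sac and border macrophages summed to 3422 to 6059.8 CPM in yolk sac and 61.3 to 253 CPM in E12.5 brain. The 4 neuronal markers were at 0 in all yolk sac and adult libraries. The 4 granulocyte precursor markers summed to 2495 to 9439 CPM in adult brain and to 229.7 to 1267 CPM at E18.5. The immediate early genes Fos, Jun and Egr1 summed to 62.7 to 91.9 CPM in E12.5 brain, 2335 to 2977 at E18.5 and 3876 to 5619 in adult brain. The part of these markers in the results below was not tested.

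The 134 rows together made up 8465 ± 551 CPM in yolk sac and 9617 ± 738 CPM in E12.5 brain (SD, n = 4 each). They reached 11711 ± 372 CPM at E18.5 (n = 6) and 11405 ± 317 CPM in adult brain (n = 4). No E18.5 or adult library lay below the highest E12.5 brain library, at 10546 CPM. What changed more than the sum was its make-up. Mitochondrial carriers, with 25 rows, held 34.8% of the solute carrier sum in yolk sac, 32.7% in E12.5 brain, 23.3% at E18.5 and 15.7% in adult brain. Carriers of hexoses, sugar phosphates and monocarboxylates, with 16 rows, held 6.58%, 8.98%, 11.3% and 16.4% in the same order. Carriers of nucleosides and vitamins, with 6 rows, held 6.20%, 8.20%, 11.0% and 14.2%. The 19 rows for amino acids and peptides held between 21.3% in yolk sac and 25.6% in adult brain.

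**Figure D1:**
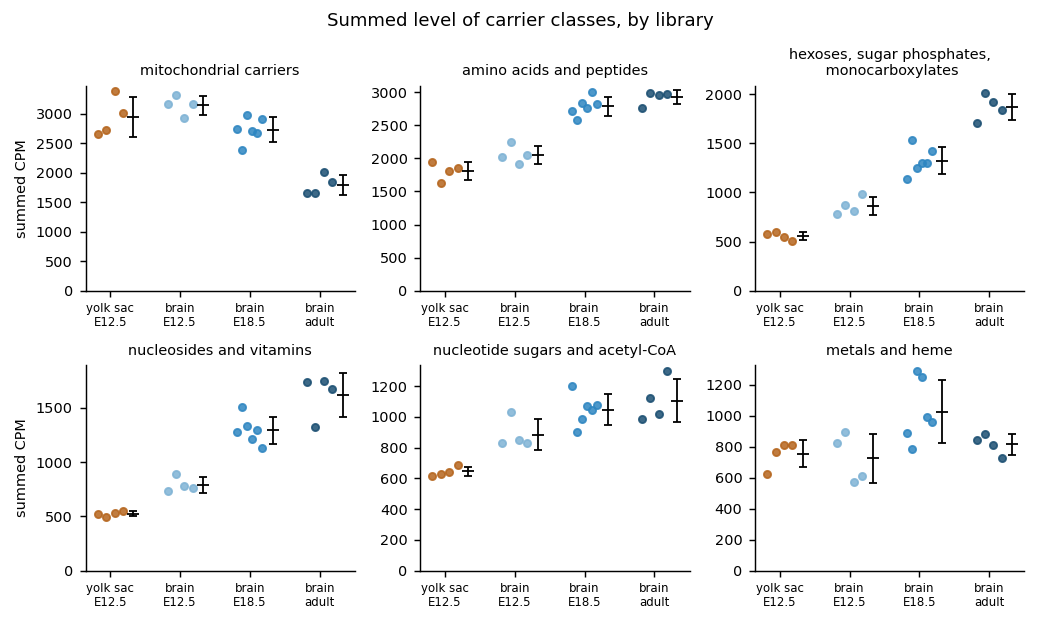
Summed CPM of 6 classes of solute carriers, on a linear axis from 0. Each point is 1 library, and the black mark with bars is the mean ± SD over 4 yolk sac, 4 E12.5 brain, 6 E18.5 brain and 4 adult brain libraries. All 4 adult libraries lie below all E18.5 libraries for mitochondrial carriers and above them for carriers of hexoses and monocarboxylates.

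In CPM, the mitochondrial carriers summed to 2943 ± 335 in yolk sac, 3144 ± 165 in E12.5 brain, 2732 ± 208 at E18.5 and 1790.1 ± 166 in adult brain. The hexose and monocarboxylate class summed to 557 ± 41.7, 864 ± 91.8, 1324 ± 139 and 1869.8 ± 129 CPM in that order. Slc2a5 alone averaged 8.89, 214, 452 and 1140 CPM of this. Without that row the class sum was lower on average in adult than in E18.5 brain. The nucleoside and vitamin class summed to 525 ± 20.1, 789 ± 69.9, 1291 ± 128 and 1619.9 ± 203 CPM. Slc29a3 alone averaged 150, 388, 629 and 1117 CPM of this, and without it this class was also lower in adult than in E18.5 brain. The net adult rise of each class sum was thus no larger than that of 1 row. Other rows rose too, Slc50a1 in the first class and Slc46a1 in the second, but falls of further rows outweighed them. These sums carry no test, since the rows were chosen with results of these data known. Because CPM are shares of the library, a class that takes more UMIs leaves fewer to the others, and the amount of RNA per cell cannot be read from them.

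Each row was tested with edgeR's quasi-likelihood F-test on counts summed per library, in 1 fit of all 18 libraries, and a gene passed at an adjusted p under 0.05 over 4883 genes. Of the 134 rows 63 passed the filter on low counts and were tested; the lowest tested total was 96 UMIs. Yolk sac against E12.5 brain gave 11 solute carriers, or 17.5% of those tested, beside 15.9% of all genes. Of these 4 were higher (6.35%, beside 7.04% of all genes) and 7 lower (11.1%, beside 8.81%). E18.5 against E12.5 brain gave 13, or 20.6%, beside 24.5% of all genes. Adult against E18.5 brain also gave 13, beside 21.5% of all genes, with 6 higher (9.52%, beside 10.3%) and 7 lower (11.1%, beside 11.2%). Adult against E12.5 brain gave 19, or 30.2%, beside 38.6% of all genes, with 11 higher (17.5%, beside 17.8%) and 8 lower (12.7%, beside 20.7%). The shares of solute carriers called were thus near or below those of all genes.

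The directions stood farther from all genes at E18.5. The 11 rises there were 17.5% of the tested solute carriers, beside 11.1% of all genes, and the 2 falls 3.17%, beside 13.4%. With batch as a term in the fit 1 of these 13 passed, Slc25a1, while all 13 kept their sign, the rises with log2 fold changes from 0.44 to 2.13. The median log2 fold change of the 63 rows was 0.38 at E18.5 over E12.5, against −0.03 for all genes, and 50 of 63 were above 0. In adult over E18.5 the median was −0.18, against −0.03 for all genes. With no filter on low counts all 134 rows could be tested, and adult against E18.5 then gave 4 higher and 16 lower, beside calls for 8.16% of all genes, and adult against E12.5 9 higher and 17 lower, beside 16.7%. The shares of all genes by direction were not counted in that fit. Without the filter the median log2 fold change of all genes moved by −0.18 and −0.24 in that order. These directions are therefore not read as a trait of solute carriers. Libraries did not overlap for 5 higher and 7 lower rows in yolk sac against E12.5 brain, beside 8.36% and 11.6% of all genes. They did not overlap for 13 higher and 1 lower row at E18.5 against E12.5, beside 8.11% and 10.6%, nor for 5 higher and 5 lower rows in adult against E18.5 brain, beside 7.7% and 9.13%. The comparisons with E12.5 brain share its libraries. Over yolk sac against E12.5 brain and both steps between brain ages, 27 rows passed at least once and 36 never did.

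**Figure D2:**
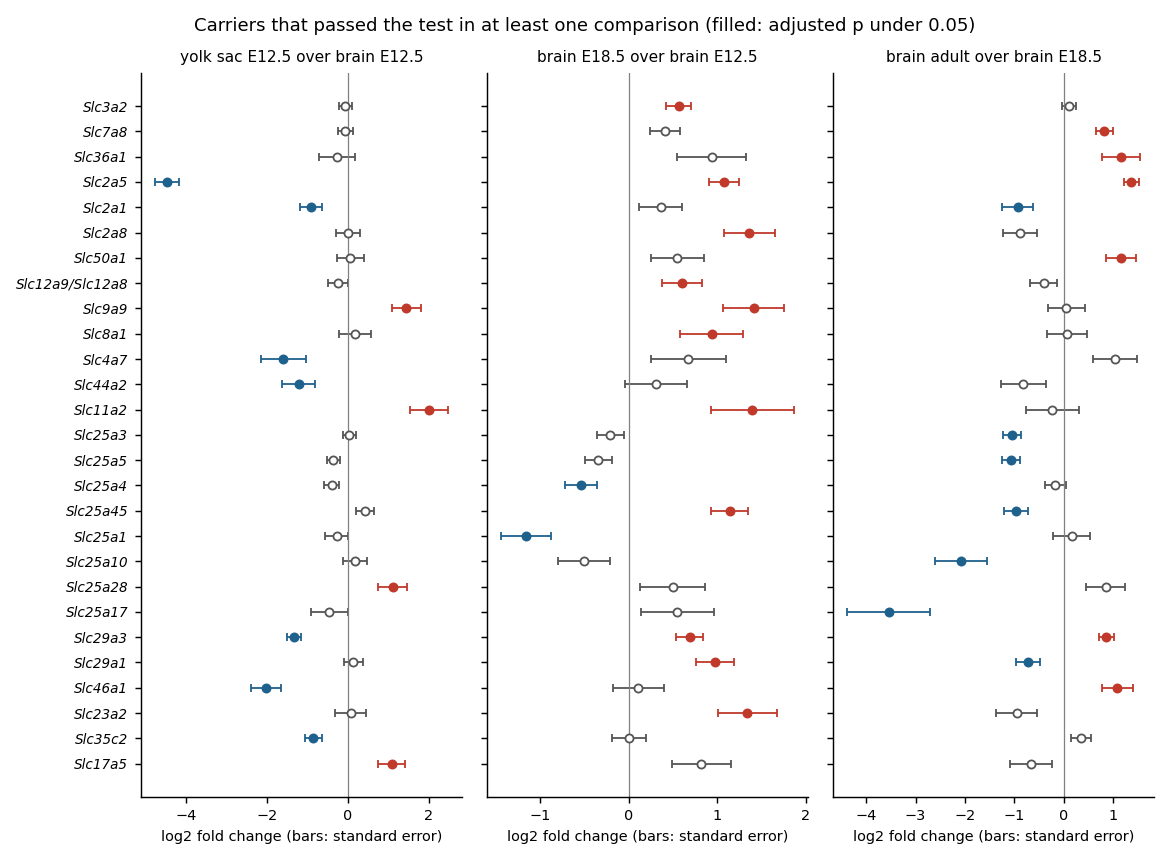
Log2 fold change of the 27 solute carriers that passed the test in at least 1 of 3 comparisons, with the standard error as bars and a scale of its own in each panel. Filled points passed at an adjusted p under 0.05, red for higher and blue for lower, and open points did not. Slc2a5 stands farthest below 0 in yolk sac over E12.5 brain, and every filled mitochondrial carrier of adult over E18.5 brain lies below 0.

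Slc2a5 showed the widest range of the hexose carriers. It was at 3.63 to 14.8 CPM in the 4 yolk sac libraries and at 204, 206, 236 and 210.1 CPM in the E12.5 brain libraries. At E18.5 it had a lowest, median and highest value of 383, 467 and 473 CPM, and in adult brain it was at 854, 1275, 1319.6 and 1113 CPM. The groups did not overlap at any step. Yolk sac was below E12.5 brain, with a log2 fold change in edgeR of −4.46 (SE 0.29, adjusted p = 7.07e-16). The rise was 1.08 at E18.5 over E12.5 (SE 0.17, edgeR adjusted p = 4.94e-06) and 1.36 in adult over E18.5 brain (SE 0.16, edgeR adjusted p = 1.50e-08). With batch as a term the rise at E18.5 over E12.5 did not pass (edgeR log2 fold change 1.05, adjusted p = 0.592). The difference between tissues was as large within the batch that yolk sac replicates 1 and 2 share with E12.5 brain replicates 3 and 4, at 9.22 and 223 CPM and a log2 ratio of −4.60.

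To describe Slc2a5 per cell at the same depth, every cell was thinned to 300 UMIs. A share of cells at this depth largely follows the mean CPM, so it restates the levels above. It cannot tell more expressing cells from more transcripts per cell. The share of cells with at least 1 UMI was then 0.145% ± 0.291 in yolk sac, 5.58% ± 2.16 in E12.5 brain, 12.0% ± 1.68 at E18.5 and 25.3% ± 5.00 in adult brain (SD over libraries). Before thinning the shares were 1.49%, 28.3%, 32.6% and 41.3%, with the deeper cells of the younger brains counted at full depth.

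Slc2a1, the widely expressed glucose carrier GLUT1, moved otherwise. It was at 74.0, 83.5, 61.5 and 40.8 CPM in yolk sac and at 99.1, 146, 124 and 136 CPM in E12.5 brain, with no overlap (edgeR log2 fold change −0.91, SE 0.28, adjusted p = 0.0193). In adult brain it was at 76.9 to 90.5 CPM, against 82.0, 166 and 221 CPM as the lowest, median and highest value at E18.5 (edgeR log2 fold change −0.94, SE 0.32, adjusted p = 0.0294). The lowest E18.5 library thus lay within the adult range. Both calls depended on single libraries, and with batch as a term Slc2a1 did not pass between the tissues (edgeR log2 fold change −0.73, adjusted p = 0.276). Within the shared batch the log2 ratio was −0.72.

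Slc2a8, the intracellular hexose carrier GLUT8, had a lowest, median and highest value of 114, 156 and 271 CPM at E18.5, and lay at 48.6, 50.5, 72.8 and 101 CPM in E12.5 brain (edgeR log2 fold change 1.36, SE 0.29, adjusted p = 0.000434). Adult brain, at 50.3 to 125 CPM, overlapped E18.5 (adjusted p = 0.0571 in edgeR). Slc50a1, the mammalian SWEET sugar carrier, was at 191, 176, 145 and 174 CPM in adult brain, above every E18.5 library, which had 37.9, 78.0 and 116 CPM as lowest, median and highest (edgeR log2 fold change 1.16, SE 0.31, adjusted p = 0.00497). Among the untested hexose and lactate carriers, Slc2a3, the high-affinity glucose carrier GLUT3, averaged 32.5, 19.6, 9.33 and 6.10 CPM in yolk sac, E12.5, E18.5 and adult brain, on 37, 34, 10 and 2 UMIs. Slc2a6, a lysosomal hexose carrier, averaged 2.76, 26.9, 15.0 and 0 CPM on 3, 37, 16 and 0 UMIs. Slc16a1, the lactate carrier MCT1, averaged 16.9, 21.5, 27.8 and 35.1 CPM on 19, 31, 30 and 13 UMIs.

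**Figure D3:**
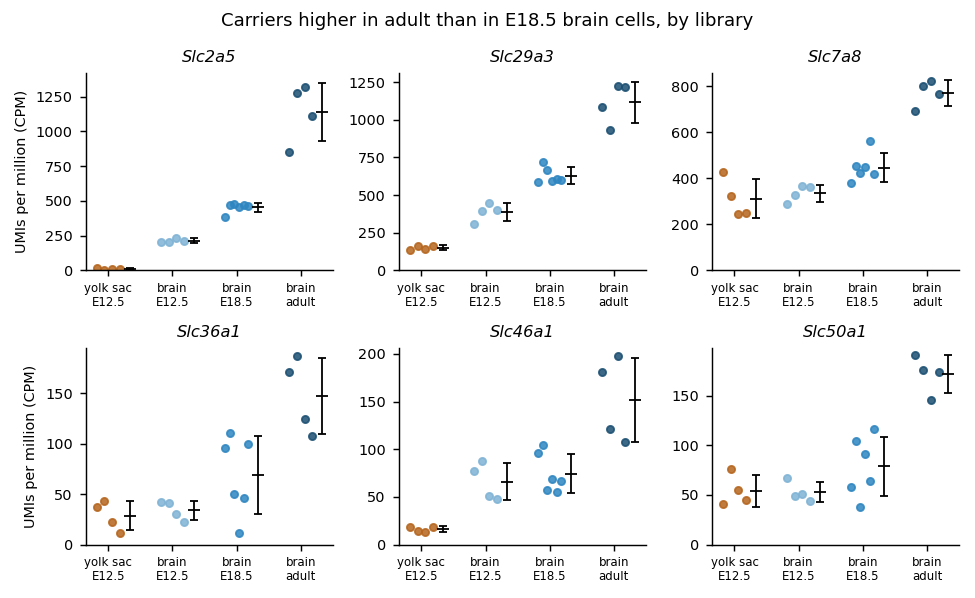
CPM of the 6 solute carriers that were higher in adult than in E18.5 brain, on linear axes from 0. Each point is 1 library, and the black mark with bars is the mean ± SD over 4, 4, 6 and 4 libraries. Adult libraries lie above all E18.5 libraries for every gene but Slc36a1, and Slc2a5 is near 0 in yolk sac.

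Of the amino acid carriers 11 were tested; none passed between yolk sac and E12.5 brain, 1 rose at E18.5 (9.09%, beside 11.1% of all genes) and 2 rose in adult over E18.5 brain (18.2%, beside 10.3%). Slc3a2, the heavy chain CD98 of several amino acid exchangers, was at 612, 762 and 896 CPM at E18.5 (lowest, median, highest), against 506, 528, 539.9 and 490.2 CPM in E12.5 brain. Every E18.5 library lay above them (edgeR log2 fold change 0.56, SE 0.14, adjusted p = 0.00267). Adult brain overlapped E18.5, at 834, 912, 686 and 791 CPM (adjusted p = 0.676 in edgeR). Slc7a8, the light chain LAT2 that pairs with CD98 and exchanges neutral amino acids, was at 694, 802, 821 and 764 CPM in adult brain and at 377, 435 and 561 CPM at E18.5 (lowest, median, highest). The ages did not overlap (edgeR log2 fold change 0.82, SE 0.17, adjusted p = 0.000389). Between yolk sac and E12.5 brain Slc7a8 overlapped, with means of 311 ± 84.5 and 335 ± 36.6 CPM. Slc7a7, another light chain of CD98, did not pass in any comparison, and Slc7a5, the light chain LAT1, was not tested, with means of 17.2, 39.1, 31.1 and 47.8 CPM in yolk sac, E12.5, E18.5 and adult brain.

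Slc36a1, the proton-coupled amino acid carrier PAT1 of lysosomes, was at 171, 187, 125 and 107 CPM in adult brain and at 11.5, 73.1 and 111 CPM at E18.5 (lowest, median, highest). The highest E18.5 library lay above the lowest adult one (edgeR log2 fold change 1.15, SE 0.39, adjusted p = 0.0282). Over E12.5 brain, which reached at most 42.5 CPM, the adult rise was 2.09 (SE 0.42, edgeR adjusted p = 0.000117). The step after E18.5 lost its call in 8 of 17 alternatives, with log2 fold changes from 0.92 to 1.11 there, while the adult rise over E12.5 kept it in all 15, at 3.68 with batch as a term. Slc38a2, the inducible amino acid carrier SNAT2, was lower in every adult library, at 54.9 to 93.9 CPM, than at E18.5, at 99.6 to 247 CPM, but did not pass (edgeR log2 fold change −1.18, SE 0.59, adjusted p = 0.173). Its E12.5 brain libraries stood apart by plate and sequencing batch, at 97.1 and 140.4 CPM in replicates 1 and 2 and 17.1 and 21.9 CPM in replicates 3 and 4.

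Slc29a3, the lysosomal nucleoside carrier ENT3, was higher at each step from yolk sac to adult brain. It was at 133, 163, 139 and 163 CPM in yolk sac and at 309.5, 391, 449.9 and 403 CPM in E12.5 brain. At E18.5 the lowest, median and highest values were 584, 602 and 723 CPM, and adult brain was at 1085, 934, 1226 and 1220.5 CPM. No groups overlapped. The log2 fold change was −1.33 in yolk sac over E12.5 brain (SE 0.17, edgeR adjusted p = 1.06e-07), and −1.52 as a ratio of means within the shared batch. It was 0.69 at E18.5 over E12.5 (SE 0.15, edgeR adjusted p = 0.000628) and 0.86 in adult over E18.5 brain (SE 0.15, edgeR adjusted p = 3.00e-05). With batch as a term the rise at E18.5 over E12.5 did not pass (edgeR log2 fold change 0.49, adjusted p = 0.388). Slc2a5 and Slc29a3 were the 2 tested solute carriers that rose at both steps in brain, and both were also lower in yolk sac. With Slc3a2 and Slc7a8 they had the 4 highest solute carrier means in adult brain, while in yolk sac Slc25a3, Slc25a5, Slc3a2 and Slc7a8 did. UMIs at 3′ ends count transcripts and do not grow with transcript length, so this order was taken from CPM.

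Slc46a1, the proton-coupled carrier of folate, was at 18.5, 14.5, 12.9 and 18.5 CPM in yolk sac and at 76.9, 88.0, 51.4 and 48.1 CPM in E12.5 brain, with no overlap (edgeR log2 fold change −2.01, SE 0.37, adjusted p = 6.48e-05, and −1.59 within the shared batch). In adult brain it was at 181, 121, 197 and 107 CPM, above the E18.5 libraries at 55.1, 67.6 and 104 CPM (lowest, median, highest; edgeR log2 fold change 1.08, SE 0.31, adjusted p = 0.00893). Slc29a1, the plasma membrane nucleoside carrier ENT1, peaked at E18.5. It was at 189, 279 and 327 CPM there, above 109, 116, 141 and 179 CPM in E12.5 brain (edgeR log2 fold change 0.98, SE 0.21, adjusted p = 0.00066). Adult brain held 201, 154, 125 and 148 CPM and overlapped the lowest E18.5 library (edgeR log2 fold change −0.72, SE 0.25, adjusted p = 0.0308). Slc23a2, the ascorbate carrier SVCT2, had 77.4, 119 and 151 CPM as lowest, median and highest value at E18.5, while E12.5 brain had 64.7, 67.4, 17.1 and 13.1 CPM (edgeR log2 fold change 1.34, SE 0.33, adjusted p = 0.00233). The E12.5 replicates 1 and 2 again lay above replicates 3 and 4.

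Of the 9 carriers listed for the lysosomal membrane, which included Slc36a1 and Slc29a3, 8 held at least 30 UMIs and 6 were tested. Both Slc29a3 and Slc36a1 rose in adult over E18.5 brain, and the other 4 did not pass. Slc15a4, a peptide and histidine carrier, was at 124 ± 18.6 CPM in adult brain and 93.8 ± 18.7 CPM at E18.5 (adjusted p = 0.421 in edgeR). Slc46a3 was at 104 ± 42.4 and 177 ± 52.7 CPM (adjusted p = 0.105 in edgeR), and Slc38a7, a glutamine carrier, at 91.5 ± 39.4 and 131 ± 32.9 CPM (adjusted p = 0.26 in edgeR). Slc17a5, the sialic acid carrier sialin, was higher in yolk sac, at 81.4, 87.1, 104 and 108 CPM, than in E12.5 brain, at 58.7, 52.4, 34.3 and 30.6 CPM (edgeR log2 fold change 1.08, SE 0.34, adjusted p = 0.0215, and 1.38 within the shared batch). Neither Slc15a3 nor Slc38a9, the arginine sensor of lysosomes, was tested. Slc15a3 averaged 9.94, 10.5, 13.5 and 43.5 CPM in yolk sac, E12.5, E18.5 and adult brain, on 12 to 19 UMIs a group, and Slc38a9 averaged 13.1, 17.9, 41.6 and 26.1 CPM on 10 to 46 UMIs.

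The promoters of 3 solute carriers that rose in adult over E18.5 brain are shown, each from 250 bases before to 50 bases after an annotated start, because Slc2a5 changed most widely and Slc36a1 and Slc50a1 were the members that rose at that step with a match to a motif searched. Capitals mark the matches, TCACGTGA in Slc36a1 and TGATGNAA in Slc50a1, on the strand of the gene. The sequences are from RefSeq on build GRCm38.p6.
Slc2a5, chr4:150119094-150119393, + strand: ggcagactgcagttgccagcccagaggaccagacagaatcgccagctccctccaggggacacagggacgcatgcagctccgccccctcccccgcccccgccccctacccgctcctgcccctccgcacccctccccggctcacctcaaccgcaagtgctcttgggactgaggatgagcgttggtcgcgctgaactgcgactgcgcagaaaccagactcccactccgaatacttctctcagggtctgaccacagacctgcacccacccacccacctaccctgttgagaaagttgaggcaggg
Slc36a1, chr11:55204090-55204389, + strand: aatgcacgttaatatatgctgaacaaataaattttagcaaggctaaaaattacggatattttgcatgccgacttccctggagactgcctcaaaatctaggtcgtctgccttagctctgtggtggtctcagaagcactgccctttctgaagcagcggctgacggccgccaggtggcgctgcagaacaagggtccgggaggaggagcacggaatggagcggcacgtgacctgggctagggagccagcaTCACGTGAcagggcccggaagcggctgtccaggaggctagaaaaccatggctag
Slc50a1, chr3:89270521-89270820, − strand: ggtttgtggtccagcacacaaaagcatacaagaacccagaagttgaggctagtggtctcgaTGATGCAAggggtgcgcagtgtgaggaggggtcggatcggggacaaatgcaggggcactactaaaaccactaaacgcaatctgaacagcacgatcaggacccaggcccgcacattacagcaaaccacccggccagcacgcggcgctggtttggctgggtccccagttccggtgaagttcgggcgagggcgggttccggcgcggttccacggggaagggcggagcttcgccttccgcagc

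TCACGTGA, the E-box of the CLEAR element bound by the lysosomal regulators TFEB and TFE3, starts 4 bases before the start of Slc36a1. It stood in 0.974% of the 32851 promoter windows of the table and in 2 of the 144 windows found for the solute carriers (1.39%), the other being Slc37a3. TGATGNAA, the core of the composite element bound by ATF4, lies 189 bases before the start of Slc50a1 and also in windows of Slc9a9 and Slc7a7. It stood in 3.97% of all windows and in 2.78% of those of solute carriers. For TGANTCA, bound by AP-1, the shares were 7.81% and 5.56%, and for GAGGAAGT, bound by PU.1, 3.20% and 3.47%. Motifs were searched on both strands, and 104 solute carrier genes had a window. A match is a description of these letters, and the windows of Slc2a5, Slc29a3, Slc46a1 and Slc7a8 held none of the 4 motifs.

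Carriers of the Slc25 family, counted here as mitochondrial, gave no rise and 5 falls (38.5%, beside 11.2% of all genes) among 13 tested rows in adult over E18.5 brain. One of the falls was Slc25a17, which sits in peroxisomes. The 13 rows had a median log2 fold change of −0.71 against −0.03 for all genes. Slc25a3, which imports phosphate for ATP synthesis, was at 271, 297, 343 and 322 CPM in adult brain, below every E18.5 library at 547, 662 and 814 CPM (lowest, median, highest; edgeR log2 fold change −1.05, SE 0.18, adjusted p = 3.22e-05). Slc25a5, which exchanges ADP for ATP, was at 201, 231, 281 and 295 CPM, against 452, 518 and 671 CPM at E18.5 (edgeR log2 fold change −1.07, SE 0.19, adjusted p = 2.69e-05). Again the ages did not overlap. Its close paralog Slc25a4 was at 251, 143, 291 and 174 CPM in adult brain and 202, 264 and 277 CPM at E18.5 and did not pass (adjusted p = 0.617 in edgeR). Reads shared by these near-identical genes could have been split by the counting, so their separate levels are uncertain.

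**Figure D4:**
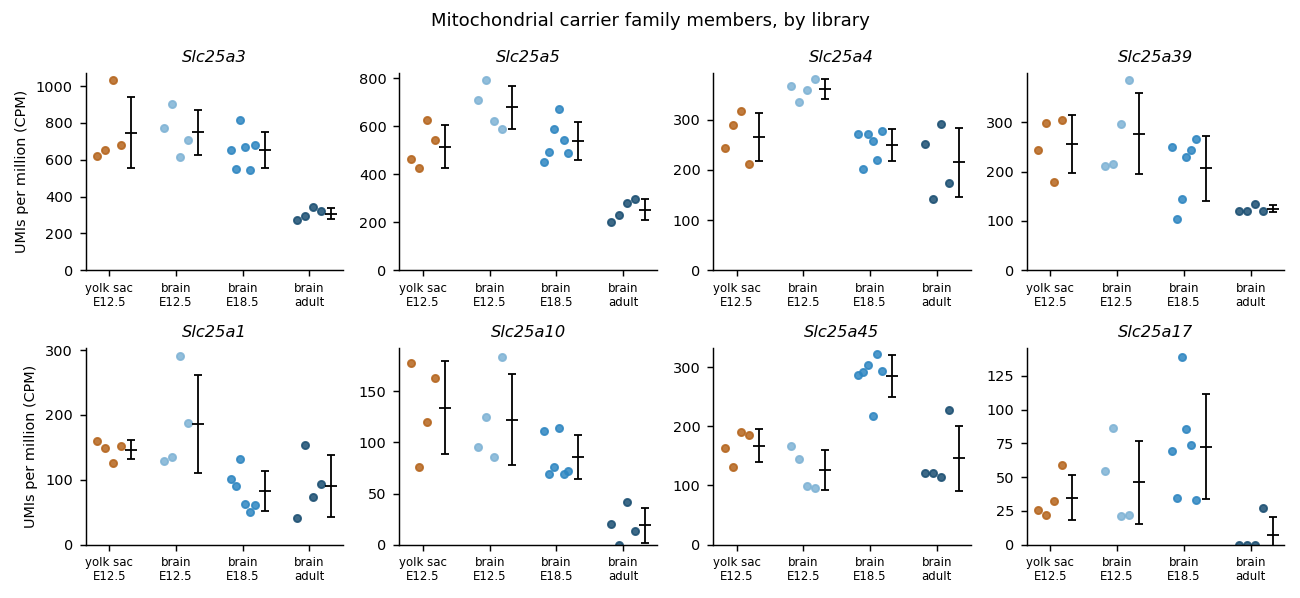
CPM of 8 mitochondrial carrier family members, on linear axes from 0. Each point is 1 library, and the black mark with bars is the mean ± SD over 4, 4, 6 and 4 libraries. Slc25a3, Slc25a5, Slc25a10 and Slc25a17 are lower in each adult than in each E18.5 library, and Slc25a45 has its highest mean at E18.5.

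After thinning to 300 UMIs, the share of brain cells with a UMI of Slc25a3 was 19.03% ± 1.90 at E12.5, 17.8% ± 2.97 at E18.5 and 7.61% ± 1.09 in the adult. For Slc25a5 the shares were 16.2% ± 1.64, 14.4% ± 4.25 and 5.36% ± 1.06 in that order (SD over libraries). Markers of dividing cells, Mki67 and Top2a, moved beside these carriers, at 0 to 70.4 CPM in sum in adult brain and 172 to 517 CPM at E18.5. Their part in the fall was not tested.

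Slc25a10, the dicarboxylate carrier, was at 20.1, 0, 41.6 and 13.4 CPM in adult brain, below every E18.5 library at 68.9, 73.8 and 115 CPM (edgeR log2 fold change −2.09, SE 0.52, adjusted p = 0.00309). The adult value rests on 7 UMIs, and without adult replicate 3 the log2 fold change was −2.84 (edgeR adjusted p = 0.00181). Slc25a17, a carrier of coenzymes in peroxisomes, had 2 UMIs in adult brain, both in replicate 4 at 26.8 CPM, and 33.2, 71.3 and 139 CPM at E18.5 (edgeR adjusted p = 0.00164). By summed counts it was 13.1 times higher at E18.5 (exact 95% interval 3.50 to 109.9). Without adult replicate 4 no adult UMI was left, and adult brain was then at least 6.92-fold lower, taking 3 counts in all as the floor. Intervals and floors cover counting error only.

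Slc25a45, a member of the family, was the mitochondrial carrier that rose at E18.5, at 218, 293 and 322 CPM (lowest, median, highest) against 166, 144, 98.5 and 96.3 CPM in E12.5 brain (edgeR log2 fold change 1.14, SE 0.21, adjusted p = 6.43e-05). In adult brain it was at 121, 121, 114 and 228 CPM, the last of these above the lowest E18.5 library (edgeR log2 fold change −0.96, SE 0.25, adjusted p = 0.00354). Slc25a45 and Slc29a1 were the 2 rows higher at E18.5 than at both neighbouring ages. Slc25a1, the citrate carrier that feeds lipid synthesis, was at 50.5, 76.7 and 133 CPM at E18.5 and at 129, 135, 291 and 188 CPM in E12.5 brain (edgeR log2 fold change −1.16, SE 0.28, adjusted p = 0.00191). Slc25a4 was at most 277 CPM at E18.5, below 335 to 381 CPM in E12.5 brain (edgeR log2 fold change −0.53, SE 0.18, adjusted p = 0.0256). Slc25a28, the mitochondrial iron importer mitoferrin 2, was at 59.2, 58.1, 93.8 and 81.6 CPM in yolk sac and at 24.3, 22.5, 55.7 and 48.1 CPM in E12.5 brain (edgeR log2 fold change 1.10, SE 0.37, adjusted p = 0.0328). Within the shared batch its means were 58.6 and 51.9 CPM, a log2 ratio of 0.175.

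Adult over E12.5 brain gave 7 falls (53.8%, beside 20.7% of all genes) and 1 rise (7.69%, beside 17.8%) among the 13 tested carriers of the Slc25 family, the peroxisomal Slc25a17 again among the falls. Besides Slc25a3, Slc25a5, Slc25a10, Slc25a17, Slc25a1 and Slc25a4, the seventh was Slc25a39, a carrier needed for mitochondrial glutathione. It was at 121 to 135 CPM in adult brain and 210.4 to 385 CPM in E12.5 brain (edgeR log2 fold change −1.11, SE 0.29, adjusted p = 0.00255). Slc25a28 rose (edgeR log2 fold change 1.34, SE 0.42, adjusted p = 0.0104), a call that was lost with batch as a term, at a log2 fold change of 0.15, and without E12.5 brain replicate 2 or adult replicate 1 or 3. With batch as a term the falls of Slc25a1, Slc25a17 and Slc25a4 did not pass either, at log2 fold changes of −1.29, −2.79 and −0.77. The call of Slc25a1 was lost in 8 of 16 alternatives, with log2 fold changes from −1.29 to −0.68, among them leaving out E12.5 brain replicate 3 or adult replicate 1 or 3. That of Slc25a4 was also lost without adult replicate 2, at −0.55.

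Among carriers of ions and protons, Slc9a9, the endosomal sodium and proton exchanger NHE9, was at 66.6, 68.9, 155 and 111 CPM in yolk sac and at 48.6, 58.0, 12.9 and 17.5 CPM in E12.5 brain (edgeR log2 fold change 1.44, SE 0.36, adjusted p = 0.00293, and 2.16 within the shared batch). E18.5 brain was also above E12.5 brain, at 75.7, 105 and 124 CPM (lowest, median, highest; edgeR log2 fold change 1.41, SE 0.35, adjusted p = 0.00203). Its adult libraries spread from 53.6 to 201 CPM. Slc4a7, a sodium bicarbonate cotransporter, was at 14.8, 7.26, 6.47 and 11.1 CPM in yolk sac and at 44.5, 39.3, 12.9 and 21.9 CPM in E12.5 brain (edgeR log2 fold change −1.59, SE 0.56, adjusted p = 0.0438). That call was lost in 11 of 14 alternatives. The log2 fold change was −0.64 with batch as a term, and within the shared batch the tissues overlapped at 11.0 and 17.4 CPM on average. Slc8a1, the sodium calcium exchanger NCX1, was at 41.7, 71.1 and 97.5 CPM at E18.5 and overlapped E12.5 brain at 42.5, 54.3, 29.99 and 13.1 CPM (edgeR log2 fold change 0.94, SE 0.36, adjusted p = 0.0495). A predicted gene overlaps Slc8a1 on the opposite strand, so its reads may be counted here too. The joined row of Slc12a9 and Slc12a8, of the cation chloride cotransporter family, was at 149, 198 and 306 CPM at E18.5, above 120.0 to 148 CPM in E12.5 brain (edgeR log2 fold change 0.60, SE 0.23, adjusted p = 0.0482). Both of these calls near the threshold were lost when single libraries were left out.

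Of 10 tested carriers of metals and heme, all 10 had a fold change above 0 at E18.5 over E12.5 brain, but 1 passed. This was Slc11a2, the iron carrier DMT1, at 25.2, 38 and 69.5 CPM at E18.5 (lowest, median, highest), against 22.3, 18.7, 12.9 and 4.38 CPM in E12.5 brain (edgeR log2 fold change 1.40, SE 0.47, adjusted p = 0.0245). Yolk sac was higher too, at 44.4, 54.4, 58.2 and 96.4 CPM (edgeR log2 fold change 2.00, SE 0.46, adjusted p = 0.00133), with 49.4 and 8.62 CPM in the shared batch. Slc11a2 overlaps another gene on the opposite strand, and how the counting used strand is not given, so its reads may include those of its neighbour. The same holds for Slc15a3, Slc15a4, Slc7a5 and Slc7a7. The most abundant row of the class, Slc39a7 joined with H2-Ke6, did not pass at any step, with means of 121 ± 38.1 CPM in yolk sac, 174 ± 33.5 in E12.5 brain, 216 ± 42.8 at E18.5 and 262 ± 95.9 in adult brain. Slc39a7 releases zinc from the endoplasmic reticulum.

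Slc35c2, of the nucleotide sugar carrier family, was at 163, 174, 136 and 222 CPM in yolk sac, below 245, 328, 308 and 411 CPM in E12.5 brain (edgeR log2 fold change −0.85, SE 0.21, adjusted p = 0.00332, and −1.10 within the shared batch). Slc44a2, a choline carrier, was at 37, 25.4, 74.4 and 63.0 CPM in yolk sac and overlapped E12.5 brain at 154, 195, 64.3 and 48.1 CPM (edgeR log2 fold change −1.22, SE 0.41, adjusted p = 0.0458), and lost its call in 12 of 16 alternatives. Within the shared batch its log2 ratio was −0.85. Slc22a17, the receptor for lipocalin 2, was at 26.8 to 76.9 CPM in adult brain, against 15.0 to 30.6 CPM in E12.5 brain (edgeR log2 fold change 1.45, SE 0.54, adjusted p = 0.0321). That call was lost in 6 of 10 alternatives, with log2 fold changes from 1.21 to 2.77, among them batch as a term, at 2.77, and leaving out adult replicate 1, 2 or 3. The joined row of Slc10a3 and Ubl4, genes that overlap, was at 11.0 to 62.3 CPM in adult brain, below 77.1 to 142 CPM in E12.5 brain (edgeR log2 fold change −1.69, SE 0.45, adjusted p = 0.00241). Of 4 rows that carry an Slc name but are no carriers, the most abundant, the scaffold Slc9a3r1, did not pass in any comparison.

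The 71 rows below the filter held at most 154 UMIs. In the fit without a filter, over 14073 genes, 3 of them passed between yolk sac and E12.5 brain, where 6.49% of all genes passed. Between E18.5 and E12.5 brain 4 passed, beside 9.11% of all genes, and between adult and E18.5 brain 2 passed, beside 8.16%. Between adult and E12.5 brain 2 of them were higher and 8 lower, where 16.7% of all genes passed. Slc14a1, the urea carrier of red cells, held 31 UMIs in yolk sac, 3 each in E12.5 and E18.5 brain and 5 in adult brain, and so met the minimum of 30 UMIs through yolk sac. The group totals were 1124605, 1490394, 1063427 and 361302 UMIs in that order, so such counts are not levels. The 5 adult UMIs were a larger share of their group than the 3 UMIs of either embryonic brain group. Erythroid markers moved beside Slc14a1 between yolk sac and E12.5 brain, at 189 to 3988 and 11.2 to 150.0 CPM in sum. Their part was not tested. Slc25a37, the mitochondrial iron importer mitoferrin 1, held 30 UMIs at E18.5 and 9 in E12.5 brain, a ratio of 4.67 (exact 95% interval 2.16 to 11.2). Erythroid markers spread from 0 to 3070.1 CPM in sum at E18.5 and from 11.2 to 150.0 CPM in E12.5 brain, with medians close together. The ratio of Slc25a37 was taken from UMIs summed over libraries, so it cannot be set beside these medians. The part of erythroid markers in it was not tested. Slc7a1, the cationic amino acid carrier CAT1, averaged 2.51 CPM in adult brain and 27.6 CPM at E18.5, on 1 and 27 UMIs. Slc2a6 and Slc22a18 had no adult UMI, but both met the minimum of 30 UMIs through E12.5 brain, where they held 37 and 26.

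Lists of other transporters and of regulators were counted as well, but the alternatives were not run for these lists. Of 7 tested SLCO and ABC transporters 5 rose at E18.5 over E12.5 brain, ages that share no batch, beside 11.1% of all genes. Slco2b1, an organic anion carrier, averaged 901 ± 75.9 CPM at E18.5 and 435 ± 126 CPM in E12.5 brain (edgeR log2 fold change 1.03, SE 0.15, adjusted p = 1.86e-06), and in adult brain it reached 1151 ± 59.8 CPM, beside 1140.4 ± 210.3 CPM for Slc2a5. Abcg1, which exports cholesterol, averaged 39.1 ± 3.07 CPM in yolk sac and 239 ± 47.8 CPM in E12.5 brain (edgeR log2 fold change −2.56, SE 0.24, adjusted p = 4.30e-11). Bsg, the chaperone of lactate carriers, did not pass at any step, while Emb, another such chaperone, averaged 184 ± 41.4 CPM in yolk sac and 62.8 ± 26.5 CPM in E12.5 brain (edgeR log2 fold change 1.56, SE 0.31, adjusted p = 0.00015). Atp1b3, a subunit of the sodium pump, which maintains the gradient that many solute carriers use, was at 331 ± 53.6 CPM in adult brain and 937 ± 78.4 CPM at E18.5 (edgeR log2 fold change −1.47, SE 0.17, adjusted p = 1.50e-08). Atf4, a regulator of amino acid carriers, averaged 455 ± 81.3 CPM at E18.5 and 243 ± 23.4 CPM in E12.5 brain (edgeR log2 fold change 0.90, SE 0.19, adjusted p = 0.000471). At this step it was the 1 riser among 4 tested genes of its programme, and Psat1, Phgdh and Ddit4 did not pass. Ddit4 rose in adult over E18.5 brain (edgeR log2 fold change 2.66, SE 0.51, adjusted p = 0.00012). Psat1 and Phgdh were lower in yolk sac than in E12.5 brain (edgeR log2 fold changes −2.15 and −1.39, adjusted p = 0.0394 and 0.00033). Of the 9 listed targets of Atf4, all of them solute carriers, 2 were tested, Slc3a2 and Slc38a2. Of these Slc3a2 passed at E18.5 over E12.5 brain. Of 5 tested genes of amino acid sensing at the lysosome, Rptor alone passed in adult over E18.5 brain, at 293 ± 114 and 181 ± 46 CPM (edgeR log2 fold change 0.72, SE 0.24, adjusted p = 0.0307).

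Calls differed in how well they held over the alternatives tried. Between yolk sac and E12.5 brain 5 of the 11 held in each alternative that tested them, namely Slc2a5, Slc29a3, Slc35c2, Slc9a9 and Slc11a2, and Slc46a1 was lost only with batch as a term. The calls of Slc17a5, Slc25a28, Slc2a1, Slc44a2 and Slc4a7 were each lost without single libraries, yolk sac replicate 4 among them for all 5. The other libraries were yolk sac replicate 3 for all but Slc44a2, E12.5 brain replicate 2 for all but Slc17a5, E12.5 brain replicate 1 for Slc25a28, Slc44a2 and Slc4a7, yolk sac replicate 2 for Slc44a2 and Slc4a7, yolk sac replicate 1 for Slc44a2, and E12.5 brain replicates 3 and 4 for Slc17a5. Where lost, the log2 fold changes were 0.98 to 1.35 for Slc17a5, 0.16 to 1.12 for Slc25a28, −0.88 to −0.73 for Slc2a1, −1.33 to −0.74 for Slc44a2 and −1.65 to −0.64 for Slc4a7. Between E18.5 and E12.5 brain 7 rows were lost only with batch as a term, namely Slc2a5, Slc29a3, Slc2a8, Slc23a2, Slc25a45, Slc29a1 and Slc9a9. Slc3a2 kept its call without any single library but lost it with batch as a term, at a log2 fold change of 0.65, and with counts summed per plate, at 0.60. With counts summed per plate 8 of the 13 passed. The calls of Slc11a2, Slc25a4, Slc8a1 and the joined row of Slc12a9 and Slc12a8 also depended on single libraries. Slc11a2 was lost without E12.5 brain replicate 4 or E18.5 replicate 2, and the other 3 without any of 6 or 7 libraries of both ages. Where lost, the log2 fold changes were 1.23 to 1.56 for Slc11a2, −0.60 to −0.45 for Slc25a4, 0.77 to 1.03 for Slc8a1 and 0.44 to 0.81 for the joined row. Between adult and E18.5 brain, within 1 batch, 9 of 13 held throughout. There Slc46a1 was lost without adult replicate 1 or 3, with log2 fold changes of 0.96 and 0.92, and Slc36a1, Slc2a1 and Slc29a1 were lost without any of 5, 6 and 5 libraries. These were E18.5 replicates 3, 4 and 5 and adult replicates 1 and 2 for Slc36a1, E18.5 replicates 4, 5 and 6 and adult replicates 2, 3 and 4 for Slc2a1, and E18.5 replicates 2 and 5 and adult replicates 2, 3 and 4 for Slc29a1. Where these 3 calls were lost their log2 fold changes lay from 0.92 to 1.11, from −0.99 to −0.67 and from −0.78 to −0.64. Between adult and E12.5 brain 9 of 19 held throughout, and Slc9a9 was lost without adult replicate 1, at a log2 fold change of 0.84.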

How the data were processed

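The deposited values were whole UMI counts for each gene in each well, not normalized by the authors, with a well annotation. Per the submitters' processing notes, bcl2fastq 2.15.0.4 and build mm9 were used; no aligner, annotation or strand setting is named in the sources used here. Single-cell wells with at least 300 gene UMIs were kept, 3012 of 3420, and summed per library; no doublet caller was run. edgeR 4.0.16 (R 4.3.3) was run with TMM factors, filterByExpr and robust quasi-likelihood F-tests, with Benjamini-Hochberg adjustment. Simulated data were used to check it. There, 24% to 51% of true log2 fold changes of size 1 were recovered over the comparisons, and 82% to 91% of those of size 2. Of the calls, 2.75% to 6.35% were false. A row that did not pass may thus still have changed. Genes named were, per comparison, up to 7 called single-name rows a direction whose larger group mean reached 20 CPM, every called row of several names, the 6 rows of highest mean and the most abundant row of a class; Slc38a2, Slc22a17, Slc25a39, Slc10a3 and the untested rows were added after their values were seen. Members and lists were chosen with earlier results of these data known. Alternatives were other scaling, no filter, 500 UMIs, thinned libraries, batch or plate, 2 groups alone, each library left out and DESeq2 1.42.0. No 2 libraries of a group agreed within sampling noise. Promoters (RefSeq, GRCm38.p6) were matched by symbol; 30 rows had no window. No coordinates were converted between builds.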

Additional observations from a re-analysis of the deposited data

Results flagged for a closer look

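Of 116 groups of libraries over 29 named rows, 6 held 1 library that stood apart from the others of its group, and chance alone gives about 1 in 20. Slc2a5 was at 383 CPM in E18.5 replicate 1 and at 453 to 473 CPM in the others. Slc25a45 was at 218 CPM in E18.5 replicate 4, against 287 to 322 CPM in the others, and at 228 CPM in adult replicate 4, against 114 to 121 CPM. Slc25a3 was at 1032 CPM in yolk sac replicate 3 and at 622 to 682 CPM in the others. Slc23a2 was at 101 CPM in adult replicate 1 and at 40.2 to 44 CPM in the others. Slc25a17 was at 26.8 CPM in adult replicate 4 and at 0 in the others.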

How the results depend on the processing

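Depth limited the adult libraries most, and 71 of 134 rows were below the filter. Against 11 in the fit reported, yolk sac against E12.5 brain gave 5 calls with libraries thinned to 1 total, 6 with batch as a term and 6 with counts summed per plate, and 6 to 10 without single libraries, 6 of them without yolk sac replicate 4 and 7 without E12.5 brain replicate 2. With thinned libraries 6 of those 11 rows were still tested, and 5 of the 6 kept their call. E18.5 against E12.5 brain gave 1 call in place of 13 with batch as a term, and 10 to 15 without single libraries. Adult against E18.5 brain gave 20 in place of 13 with no filter and all 134 rows tested, where 8.16% of all genes passed. It gave 10 to 15 without single libraries. Adult against E12.5 brain gave 11 in place of 19 with batch as a term, and 17 to 25 without single libraries. No named call reversed. The cause of these shifts was not tested. The summed CPM without single libraries was 8222 to 8624 in yolk sac, and 9308 to 9908, 11602 to 11820.5 and 11266 to 11522 in E12.5, E18.5 and adult brain. Without a filter the median of all genes moved by −0.18 (log2) in adult over E18.5 and −0.24 in adult over E12.5 brain; with thinned libraries it moved by 0.11 at E18.5 over E12.5 and 0.19 in adult over E12.5. No paired analysis was possible because the labels give no replicate numbers that groups share, and numbers given in order of deposit only name libraries.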
